A study of Mus musculus with 24 samples.

Results

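A set of 1465 H3K27ac regions was present in tet-Myc/YAP, tet-Myc and tet-YAP livers and missing from the wild-type list. These regions were chosen by position from the deposited H3K27ac lists: a tet-Myc/YAP region was taken where it shared at least 1 bp with a tet-Myc region and with a tet-YAP region, and no base with any wild-type region. They made up 1465 of the 21854 tet-Myc/YAP regions (6.7%) and are called new regions here, although a region missing from a list may still hold acetylation below the cutoff used for calling. Since the H3K27ac lists selected them, every H3K27ac value given for them is a description and carries no test.

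H3K27ac is the acetylated form of histone H3 found at active promoters and active enhancers, H3K4me3 marks promoters, and H3K4me1 marks enhancers, whether active or not, and the flanks of promoters. YAP is a coactivator that the Hippo pathway keeps out of the nucleus, it has no DNA-binding domain and reaches chromatin through the TEAD transcription factors, and in liver it is known for driving organ growth. Myc binds E-box sequences together with its partner Max, at many active promoters, and promotes cell growth and division.

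The livers came from tet-Myc/YAP mice (R26-rtTA;tet-Myc;tet-YAP), tet-Myc mice (R26-rtTA;tet-Myc), tet-YAP mice (R26-rtTA;tet-YAP) and wild-type mice (R26-rtTA;WT). All groups thus carried R26-rtTA, the doxycycline-dependent transactivator, and were induced for 2 days, with doxycycline in the food per the study's methods. The Rosa26 locus that drives rtTA is active in many cell types, the tet-YAP transgene encodes an activated mutant of YAP, and chromatin came from whole dissected liver, so fewer cells with a mark and less of the mark per cell cannot be told apart. No source used here gives the age of the mice or says whether livers were pooled. Peaks of TEAD, Myc, RNA polymerase II and H3K4me3 were used in all 4 genotypes, of YAP in tet-Myc/YAP and tet-YAP livers, and of H3K4me1 in wild-type liver. Each list was 1 library with no replicate, so no genotype was tested against another, and shares carry Wilson 95% intervals that cover counting error over regions only. The narrow lists (TEAD, Myc, YAP and RNA polymerase II) were called on 16902784 to 50587918 ChIP tags each, and for the broad ones (H3K27ac, H3K4me3 and H3K4me1) the depth is unknown.

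The new regions were a minor part of a list that was mostly shared. Of the 21854 tet-Myc/YAP regions, 17946 overlapped a wild-type region, and 16999 of these (77.8% of the list) were in all 4 genotypes. The other 3908 had no wild-type partner: 1465 were the new regions, 1045 were also in tet-Myc only, 478 were also in tet-YAP only, and 920 were in tet-Myc/YAP alone. The mirror group, wild-type regions found in none of the transgenic lists, held 521 of 17821 regions (2.92%). The lists themselves differed in length, with 21854 regions for tet-Myc/YAP, 20524 for tet-Myc, 20347 for tet-YAP and 17821 for wild-type. When each transgenic list was cut to the wild-type length by score, 638 new regions remained by the same rule, and with only the regions above each transgenic list's median score 11 did.

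New regions were narrow and weakly scored in every list that held them. Their median width was 4051 bp (quartiles 2346 and 6605), against 6738 bp (3727 and 12340) for tet-Myc/YAP regions also in wild-type and 3282 bp (2052 and 5172) for regions in tet-Myc/YAP alone. Their score stood at a median percentile of 25.1 in the tet-Myc/YAP list, of 21.8 in the tet-Myc list and of 20 in the tet-YAP list, so they ranked low in all of these livers. With the tet-Myc/YAP list divided at its score quartiles, 731, 592, 125 and 17 new regions fell into the classes from the bottom to the top. A broad region is built of 1 or more strong blocks joined by weaker signal, and 1085 of 1465 new regions (74.1%) had a single block, against 9631 of 17946 regions also in wild-type (53.7%). A median of 96.0% of a new region's bases were covered in tet-Myc and 96.4% in tet-YAP, against 99.3% in each for regions also in wild-type, and 1333 of 1465 (91.0%) were covered over at least 50% of their width in both.

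The rule leaves out any region that touches wild-type acetylation, so the distances describe what it kept. The median distance to the nearest wild-type region was 22113 bp for new regions, against 28648 bp for regions in tet-Myc/YAP alone, 1039 new regions (70.9%) were more than 10 kb away, and 4 were within 1 kb. Just inside the rule stood the new region chr12:81011287-81023593, which ended 34 bp from a wild-type region, and next to it were regions 124 bp and 865 bp away. Just outside stood the tet-Myc/YAP region chr17:15158552-15159359, found in both other transgenic lists and sharing 696 bp with wild-type, followed by regions that shared 718 bp and 734 bp. No region of those lists shared under 100 bp with wild-type, so a limit of 100 bp in place of 1 bp would have given the same regions. New regions were scattered, with 1209 of them more than 50 kb from any other, 114 pairs, 8 runs of 3 and 1 run of 4.

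The new regions were spread over all autosomes and were frequent on chromosome X. They made up 79 of 492 tet-Myc/YAP regions on chromosome X (16.1%, interval 13.1 to 19.6%) and 1386 of 21362 regions elsewhere (6.49%). Among the autosomes the share ran between 4.64% on chromosome 6 and 8.36% on chromosome 7, so chromosome X stood apart from every autosome. Of the 79 new regions on X, 67 (84.8%) overlapped a wild-type H3K4me3 region, against 247 of 321 chromosome X regions also in wild-type (76.9%), which lies within the interval of the new regions (75.3 to 91.1%). Of all H3K27ac regions 2.25%, 2.33% and 2.03% lay on chromosome X in tet-Myc/YAP, tet-Myc and tet-YAP livers, against 1.79% in wild-type liver. Of the H3K4me3 regions 2.79%, 2.87% and 2.73% did, against 2.68% in wild-type liver, so the wild-type X share was low for H3K27ac by more than for H3K4me3. No source used here gives the sex of the animals, and its part in the chromosome X values was not tested.

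**Figure D1:**
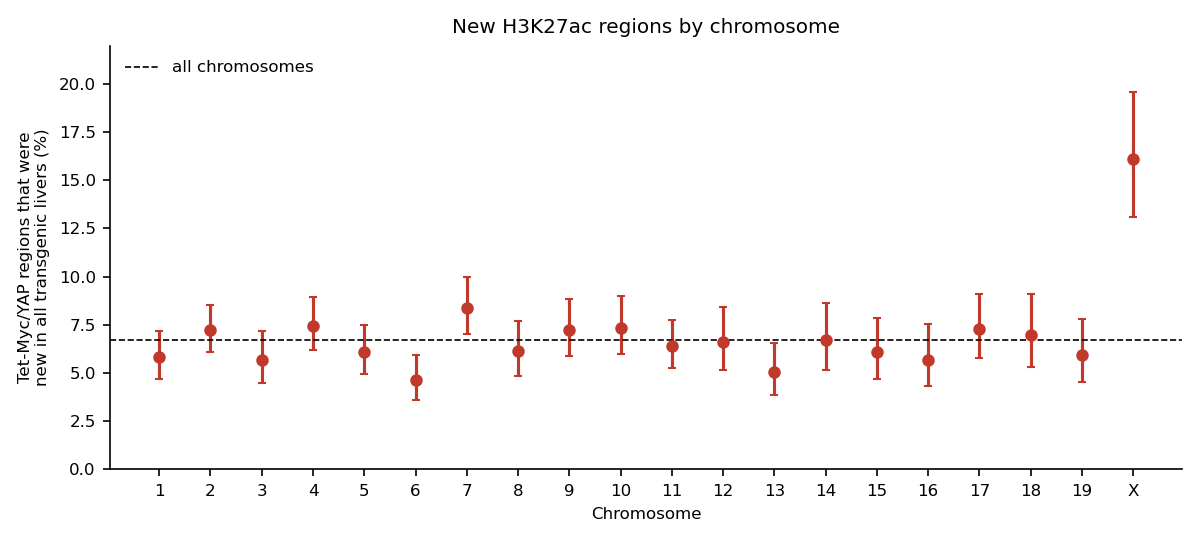
Percentage of tet-Myc/YAP H3K27ac regions that were new in all transgenic livers (y axis) on each chromosome (x axis); points are shares, bars are Wilson 95% intervals over regions, and the dashed line is the share over all chromosomes, 6.7%. Chromosome X, at 16.1%, lies above the autosomes, which run from 4.64 to 8.36%; chromosome Y, with 3 regions and no new one, is not drawn.

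TEAD occupied most new regions in tet-Myc/YAP liver, though fewer than regions that were already acetylated in wild-type. In tet-Myc/YAP liver 908 of 1465 new regions (62.0%, interval 59.5 to 64.4%) held a TEAD peak, against 15801 of 17946 regions also in wild-type (88.0%) and 83.9% of all tet-Myc/YAP regions. In tet-Myc liver 791 new regions (54.0%) did, against 82.0% of regions also in wild-type and 77.1% of all. In tet-YAP liver 634 new regions (43.3%) did, against 74.8% and 68.6%. In wild-type liver TEAD was already at 591 new regions (40.3%, 37.9 to 42.9%), where no acetylation was called, against 78.7% of regions also in wild-type and 71% of all. The share of new regions with TEAD was therefore below the background in each genotype.

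By genotype, new regions with TEAD in all livers were about as many as those with TEAD in none, and the others had it in some. Regions also in wild-type mostly had TEAD in all. It was in all 4 lists at 464 new regions (31.7%), in none at 476 (32.5%), and in all transgenic lists without wild-type at 115 (7.85%), against 66.4%, 7.75% and 3.79% of regions also in wild-type. Of the 874 new regions without a wild-type TEAD peak, 352 (40.3%) had one in tet-Myc/YAP, 257 (29.4%) in tet-Myc and 151 (17.3%) in tet-YAP. The same shares among the 3818 regions also in wild-type that lacked wild-type TEAD were 56.2%, 40.3% and 25.6%. A gain of TEAD was thus no more frequent at new regions than at regions whose acetylation was already present. The TEAD lists held 52392 peaks in tet-Myc/YAP, 44220 in tet-Myc and 32486 in tet-YAP, against 33417 in wild-type, at 31583894 to 33116399 tags per library. Cut to the wild-type length by −log10 q, the lists of tet-Myc/YAP and tet-Myc put TEAD at 46.4% and 46.3% of new regions, against 40.3% in wild-type, and the tet-YAP list, which is shorter, stayed at 43.3%. At this cut the tet-Myc/YAP share of regions also in wild-type, given below, was under their wild-type share of 78.7%.

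Myc peaks at new regions were mostly found in the livers with a Myc transgene. In tet-Myc/YAP liver 707 new regions (48.3%, 45.7 to 50.8%) held a Myc peak, against 78.9% of regions also in wild-type and 72.3% of all tet-Myc/YAP regions. In tet-Myc liver 646 (44.1%) did, against 79.8% and 72%. Without a Myc transgene the counts were low: 184 new regions (12.6%) in tet-YAP liver, against 47.0% of regions also in wild-type and 39.8% of all, and 26 (1.77%, 1.21 to 2.59%) in wild-type liver, against 14.3% and 11.9%. Myc was in both Myc-transgenic livers and nowhere else at 394 new regions (26.9%), in all transgenic livers without wild-type at 154 (10.5%), and in none at 681 (46.5%), against 28.1%, 32.9% and 15.7% of regions also in wild-type. The first of these patterns was thus at the background. The wild-type Myc list was short (4775 peaks), and its estimated fragment size was 51 bp against 327 to 359 bp in the other Myc lists. When the transgenic Myc lists were cut to 4775 peaks, the shares of new regions with Myc were 5.26% in tet-Myc/YAP, 4.91% in tet-Myc and 3.96% in tet-YAP, against 1.77% in wild-type. The tet-Myc/YAP share of regions also in wild-type, given below, was likewise above their wild-type share of 14.3% at this cut. A higher Myc share was thus not particular to new regions.

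YAP itself was found at few new regions. In tet-Myc/YAP liver 173 new regions (11.8%, 10.3 to 13.6%) held a YAP peak, against 8183 regions also in wild-type (45.6%) and 39% of all tet-Myc/YAP regions. In tet-YAP liver 37 new regions (2.53%, 1.84 to 3.46%) did, against 746 regions also in wild-type (4.16%) and 3.86% of all, and 18 of the 37 had YAP in tet-Myc/YAP liver as well. A called YAP peak of tet-YAP liver was thus rare at new regions and at all tet-Myc/YAP regions alike. The tet-YAP YAP list had 1328 peaks with an estimated fragment size of 56 bp, and the tet-Myc/YAP list had 11719 with 364 bp. Their controls were also unlike: the tet-YAP list was called on 25200986 ChIP tags against 25190581 control tags. The tet-Myc/YAP list was called on 17375089 ChIP tags against 167021745 control tags.

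Where YAP was present in tet-Myc/YAP liver, TEAD and Myc nearly always were too, at new regions as elsewhere. Of the 173 new regions with YAP in tet-Myc/YAP liver, 167 (96.5%) had TEAD, 155 (89.6%) had Myc and 143 (82.7%) had TEAD in wild-type liver as well, against 98.4%, 96.6% and 95.1% of regions with YAP also in wild-type. In tet-YAP liver this held for TEAD and not for Myc: 33 of the 37 new regions with YAP had TEAD (89.2%) and 5 had Myc (13.5%), against 98.7% and 64.7%. Seen from the other side, YAP was at 150 of 582 new regions with TEAD and Myc (25.8%, 22.4 to 29.5%), at 17 of 326 with TEAD alone (5.21%) and at 5 of 125 with Myc alone (4%). The same shares among regions also in wild-type were 58.0%, 11% and 15.5%. In tet-Myc/YAP liver 431 new regions (29.4%) had none of the 3 factors, against 1396 regions also in wild-type (7.78%). TEAD with Myc and no YAP was at 432 new regions (29.5%), TEAD alone at 309 (21.1%) and Myc alone at 120 (8.19%), against 31.4%, 11.8% and 3.44% of regions also in wild-type.

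**Figure D2:**
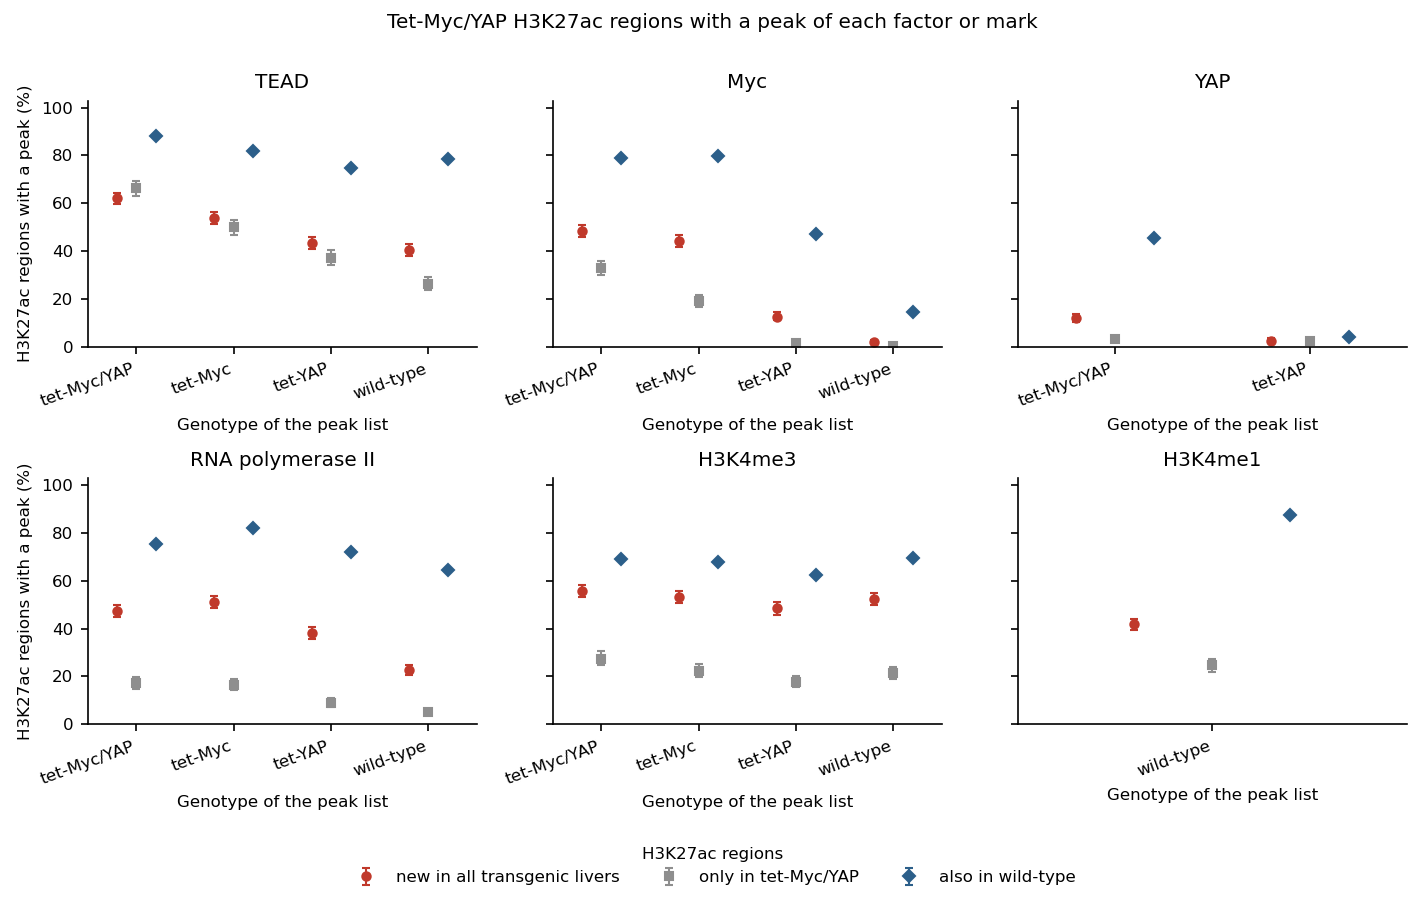
Percentage of tet-Myc/YAP H3K27ac regions that overlap a peak (y axis) of each factor or mark (panels) in each genotype's list (x axis), for regions new in all transgenic livers, regions only in tet-Myc/YAP and regions also in wild-type; bars are Wilson 95% intervals over regions, 1 library per list. New regions lie below regions also in wild-type in every panel, and their RNA polymerase II share is 47.4%, 51.0% and 38.3% in tet-Myc/YAP, tet-Myc and tet-YAP, against 22.6% in wild-type.

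RNA polymerase II, the enzyme that transcribes protein-coding genes, was at fewer new regions in wild-type liver than in any transgenic liver. In tet-Myc/YAP liver 695 new regions (47.4%, 44.9 to 50%) held a polymerase peak, against 75.2% of regions also in wild-type and 67.6% of all. In tet-Myc liver 747 (51.0%) did, against 81.9% and 73.6%. In tet-YAP liver 561 (38.3%) did, against 72.1% and 63.2%. In wild-type liver 331 (22.6%, 20.5 to 24.8%) did, against 64.7% and 55.4%. In ratio, the tet-Myc/YAP and wild-type shares lay farther apart at new regions than at regions also in wild-type.

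Polymerase was in all 4 livers at 295 new regions (20.1%), in all transgenic livers without wild-type at 170 (11.6%), and in none at 593 (40.5%), against 60.9%, 6.41% and 14.4% of regions also in wild-type. The wild-type polymerase library was the shallowest and gave 39181 peaks from 20914319 tags. The tet-Myc/YAP library gave 64678 peaks from 45829165 tags, the tet-Myc library 74914 from 50587918, and the tet-YAP library 54617 from 37737687. Cut to 39181 peaks by −log10 q, the transgenic lists still put polymerase at 41.8%, 41.8% and 34.7% of new regions, against 22.6% in wild-type. The same cut gave 70.8%, 75.3% and 69.1% of regions also in wild-type, against 64.7% in wild-type. Among the 1134 new regions with no wild-type polymerase, 382 (33.7%) had it in tet-Myc/YAP, 426 (37.6%) in tet-Myc and 251 (22.1%) in tet-YAP, and among 6333 such regions also in wild-type the shares were 36.6%, 51.2% and 27.6%.

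Most new regions carried a histone mark of promoters or enhancers in wild-type liver. In wild-type liver 768 new regions (52.4%, 49.9 to 55.0%) overlapped an H3K4me3 region, against 69.5% of regions also in wild-type and 63.5% of all. H3K4me3 changed little with genotype: 816 new regions (55.7%) had it in tet-Myc/YAP, against 69.3% and 64.2%, 781 (53.3%) in tet-Myc, against 67.8% and 62.3%, and 709 (48.4%) in tet-YAP, against 62.4% and 56.9%. It was in all 4 livers at 692 new regions (47.2%) and in none at 618 (42.2%), and it was new in all transgenic livers together with H3K27ac at 7 (0.478%). Among regions also in wild-type, H3K4me3 was in all 4 livers at 61.2%, in none at 27%, and in all transgenic livers without wild-type at 0.106%. Wild-type H3K4me1 lay on 611 new regions (41.7%, 39.2 to 44.2%), against 87.6% of regions also in wild-type and 78.9% of all, a wider gap than that of H3K4me3.

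TEAD and Myc in tet-Myc/YAP liver and polymerase in wild-type liver were also rarer at new regions within each of 4 width classes, and wild-type H3K4me3 within all but the narrowest. Of new regions 2000 to under 4000 bp wide, 57.2% had TEAD in tet-Myc/YAP, against 81.7% of equally wide regions also in wild-type, and at 8000 bp and over the shares were 70.5% and 93.9%. Wild-type polymerase was at 24.4% and 14.4% of new regions in those width classes, against 64.0% and 70.0% of regions also in wild-type. Of new regions under 2000 bp, 88.4% had wild-type H3K4me3, against 82.1% of regions also in wild-type, and at 8000 bp and over 28% did, against 71.1%. Narrow new regions were thus mostly H3K4me3 regions, and wide ones mostly not.

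Compared at like H3K27ac score, weak new regions were close to weak regions also in wild-type for polymerase and Myc of tet-Myc/YAP liver and below them for TEAD. In the bottom score quartile of the tet-Myc/YAP list, tet-Myc/YAP polymerase was at 31.7% of the 731 new regions, against 25.3% of 2950 regions also in wild-type, and in the second quartile at 60.1% of 592, against 59.7% of 4299. Myc in tet-Myc/YAP was at 25.6% and 67.6% of new regions in those quartiles, against 30.9% and 67.2% of regions also in wild-type. These differences were small and went in both directions. Wild-type polymerase was likewise close in the bottom quartile, at 16.8% of new regions against 20.5%, and apart in the second, at 29.6% against 46.3%. TEAD in tet-Myc/YAP was at 45.7% and 74.5% of new regions in those quartiles, against 62.1% and 84.4%. In the third and the top one it was at 92.8% and 100%, against 94.4% and 98.9%, so that the TEAD gap closed with score. Myc in tet-Myc liver was not close in the bottom and second quartiles, at 26.7% and 59% of new regions, against 38.2% and 68.8%. The marks differed too. In those quartiles wild-type H3K4me3 was at 46.8% and 62.3% of new regions, against 26.6% and 56.7%. Wild-type H3K4me1 was at 31.6% and 48.3%, against 69.6% and 80.4%. The shares within a quartile were thus not compared at like mark.

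Strong new regions differed widely from regions of like tet-Myc/YAP score in H3K4me3 and in the polymerase of tet-Myc, tet-YAP and wild-type livers. The score was matched in the tet-Myc/YAP list only, and by the rule new regions had no wild-type H3K27ac region. The 3 highest-scored new regions stood at percentiles 69.1, 48.3 and 38.2 of the tet-Myc list and 52.9, 70.8 and 74.1 of the tet-YAP list. In the third quartile 24.8% of 125 new regions had wild-type polymerase, against 76.4% of 5237 regions also in wild-type, and in the top quartile 2 of 17 did (11.8%, 3.29 to 34.3%), against 91.9% of 5460. Wild-type H3K4me3 went the same way, at 43.2% and 17.6% of new regions, against 80.6% and 92.2%, whereas in the bottom quartile it was more frequent at new regions (46.8% against 26.6%). Polymerase of tet-Myc and tet-YAP livers was at 54.4% and 44% of new regions in the third quartile, against 94% and 83.8%, and at 6 and 5 of the 17 in the top one, against 98.6% and 95.8%. In tet-Myc/YAP liver the 17 held TEAD at 17, Myc at 16 and polymerase at 15, where 98.9%, 99.3% and 99.2% of regions also in wild-type did. In wild-type liver 15 of the 17 had TEAD and 15 had H3K4me1, against 95.2% and 98.7%. Compared with regions of their tet-Myc/YAP score, the strongest new regions were thus closer in TEAD, in H3K4me1 and in the tet-Myc/YAP peaks of Myc and polymerase. In the polymerase of the other livers they lay farther apart. Top-quartile regions also in wild-type were mostly H3K4me3 regions and the 17 mostly were not, so this polymerase gap was not compared at like mark. Only 4 of these 17 had a YAP peak in tet-Myc/YAP liver, against 80.6% of regions also in wild-type in that quartile. This YAP gap was not compared at like mark either. In the bottom and second quartiles, where most new regions lay, tet-Myc/YAP YAP was at 5.75% and 15.7% of new regions, against 6.85% and 22.4%. In the third quartile it was at 27.2%, against 49.9%.

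**Figure D3:**
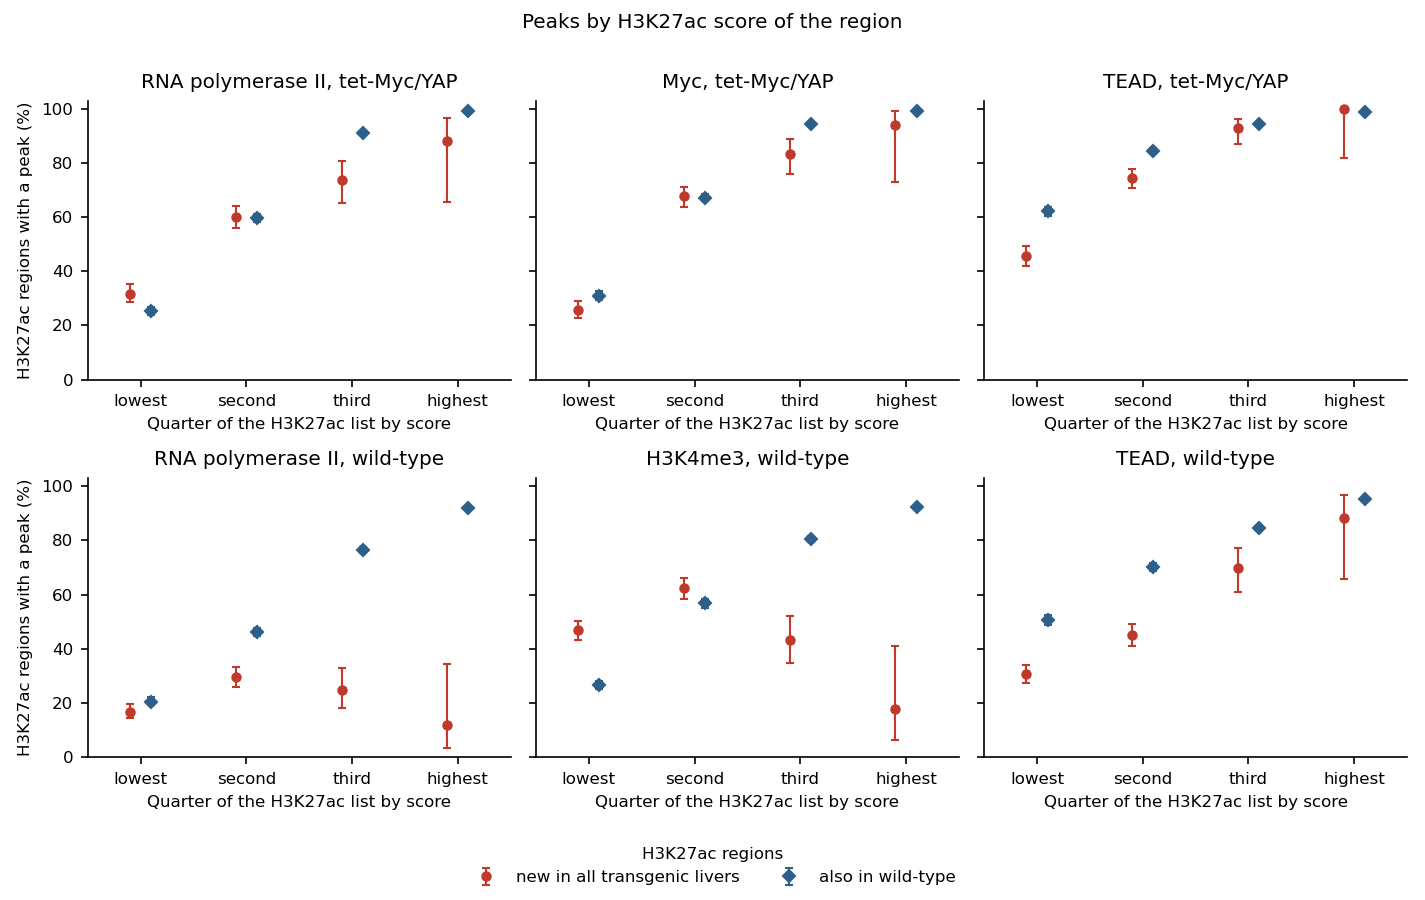
Percentage of tet-Myc/YAP H3K27ac regions with a peak (y axis) by quartile of the list's H3K27ac score from bottom to top (x axis), for regions new in all transgenic livers (731, 592, 125 and 17 regions) and regions also in wild-type; bars are Wilson 95% intervals over regions. Tet-Myc/YAP polymerase and Myc are close between the groups in the lower quartiles, where the groups were not matched for mark. Wild-type polymerase parts from the second quartile on (29.6% against 46.3%), to 11.8% against 91.9% in the top one. Wild-type H3K4me3 is more frequent at new regions in the lower quartiles, at 46.8% against 26.6% in the bottom one. In the upper quartiles it is less frequent at new regions, at 17.6% against 92.2% in the top one.

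Split by the mark carried in wild-type liver, the new regions fell into 3 classes of unlike factor content. The 768 regions with wild-type H3K4me3, the promoter-like class, had a median width of 2772 bp, against 6764 bp for such regions also in wild-type. The 381 regions with H3K4me1 and no H3K4me3, the enhancer-like class, had a median width of 5809 bp, against 6953 bp. The 316 regions with neither mark, 21.6% of new regions against 4.40% of regions also in wild-type, had a median width of 4826 bp, against 5333 bp. Polymerase was therefore compared within each class, since promoters hold it most.

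For TEAD and Myc in tet-Myc/YAP liver, enhancer-like and unmarked new regions were close to such regions with wild-type acetylation, and promoter-like ones were not. TEAD in tet-Myc/YAP was at 85.0% of enhancer-like new regions, against 85.5% of such regions also in wild-type, and at 43.4% of unmarked ones, against 46.1%. At promoter-like new regions it was at 58.2% (54.7 to 61.6%), against 91.7%. Myc in tet-Myc/YAP was at 57.0%, 19.0% and 56.0% of enhancer-like, unmarked and promoter-like new regions, against 61.0%, 15.6% and 89.6%. YAP in tet-Myc/YAP was at 17.6%, 3.16% and 12.5%, against 23.3%, 3.80% and 56.6%. In wild-type liver TEAD was at 53.8%, 24.4% and 40.2% of new regions of these classes, against 70.0%, 35.2% and 84.8%, so there the enhancer-like class differed too. The gap in YAP was seen mainly at promoter-like regions, where it was also widest for TEAD and Myc. The promoter-like groups also lay farthest apart in H3K27ac score, at a median percentile of 27.1 for new regions against 68.4, where enhancer-like regions were at 29.7 against 35.1 and unmarked ones at 14.8 against 17.3. Under the list's median score, promoter-like new regions held tet-Myc/YAP TEAD at 55.6%, Myc at 53.3% and YAP at 10.8%, against 78%, 65.9% and 22.1%, which are smaller gaps than without that limit.

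In percentage points and without matching for score, polymerase likewise differed most at promoter-like regions. In ratio the enhancer-like shares lay farther apart in tet-Myc and tet-YAP liver. At promoter-like new regions it was at 65.6% in tet-Myc/YAP, 71.6% in tet-Myc and 57.4% in tet-YAP, and at 35.2% (31.9 to 38.6%) in wild-type. The promoter-like regions also in wild-type had it at 90.7%, 94.3% and 88.9%, and at 82.9% in wild-type. At enhancer-like new regions the shares were 38.1%, 38.1% and 22.3%, and 13.1% in wild-type, against 44.5%, 59.6% and 37.2%, and 26.3% in wild-type, at such regions also in wild-type. Unmarked new regions were near the background, at 14.6%, 16.5% and 11.1%, and 3.48% in wild-type, against 13.3%, 17.6% and 13.7%, and 5.44% in wild-type. At promoter-like regions the gap was smaller at like score: among promoter-like regions under the list's median score, tet-Myc/YAP polymerase was at 63.2% of 711 new regions, against 68.4% of 3223 regions also in wild-type, and wild-type polymerase at 33.8%, against 56.9%. Promoter-like new regions were also poor in H3K4me1, which lay on 29.9% of them, against 88.5% of promoter-like regions also in wild-type.

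**Figure D4:**
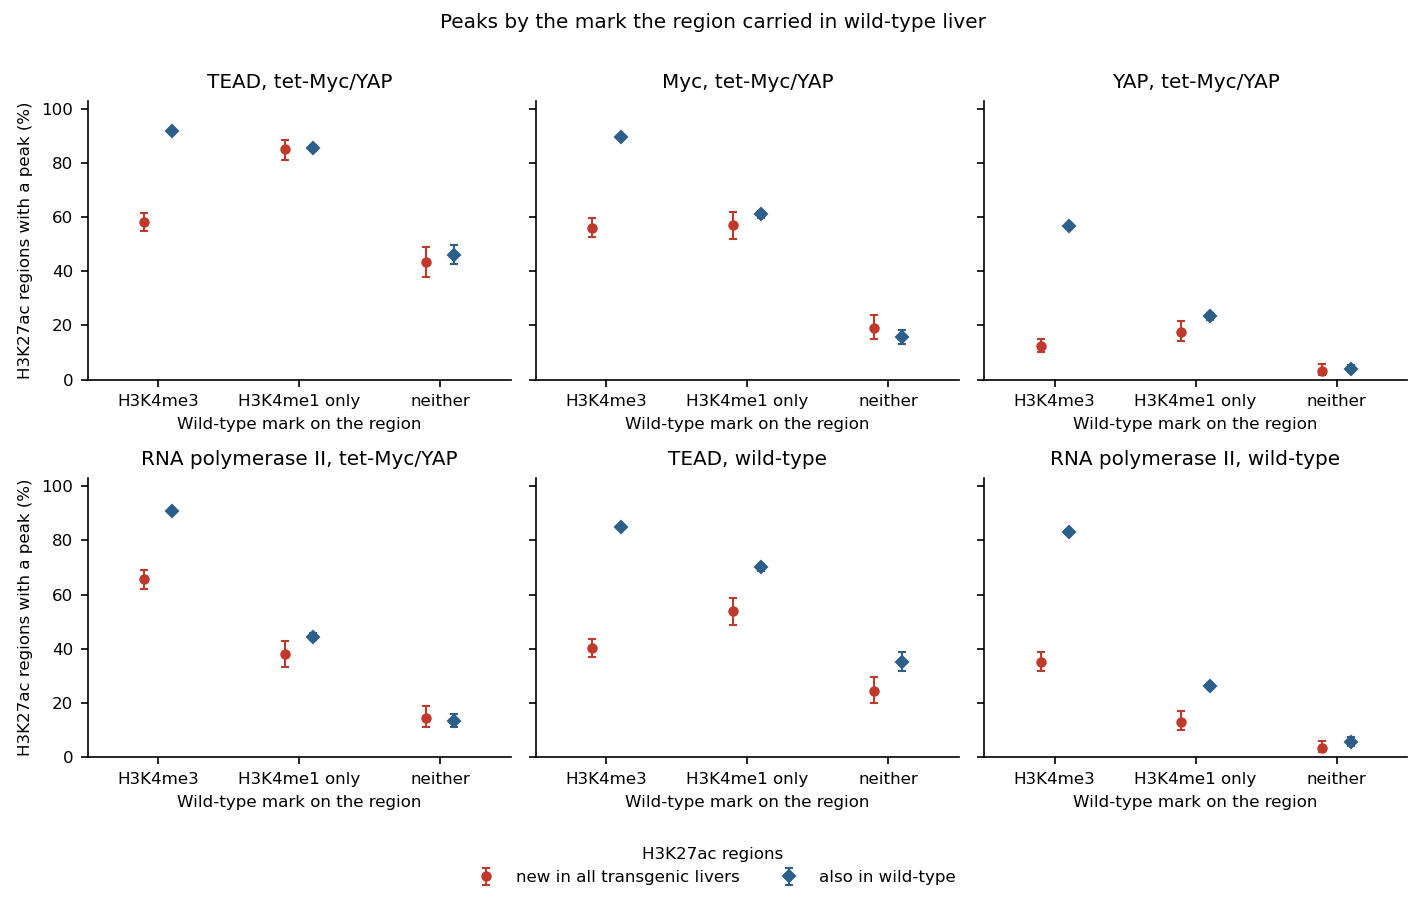
Percentage of tet-Myc/YAP H3K27ac regions with a peak (y axis) by the mark the region carried in wild-type liver (x axis: H3K4me3, H3K4me1 without H3K4me3, or neither), for regions new in all transgenic livers and regions also in wild-type; bars are Wilson 95% intervals over regions. TEAD in tet-Myc/YAP is at 85.0% and 85.5% of the regions with H3K4me1 only and at 58.2% and 91.7% of those with H3K4me3.

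A part of the new regions had no wild-type peak of any kind. Of the 1465, 230 (15.7%) overlapped none of the 5 wild-type lists other than H3K27ac (TEAD, Myc, RNA polymerase II, H3K4me3 and H3K4me1), against 485 of 17946 regions also in wild-type (2.70%) and 403 of 920 in tet-Myc/YAP alone (43.8%). In the transgenic livers 126 of the 230 (54.8%) held a peak in at least 1 transgenic list, with TEAD in tet-Myc/YAP at 69 (30.0%), Myc at 32 (13.9%), polymerase at 26 (11.3%) and YAP at 2 (0.870%). Among the 485 regions also in wild-type 248 (51.1%) held a peak in at least 1 transgenic list. The corresponding shares by factor were 25.2%, 13.0%, 9.07% and 1.03%. All of these shares lie within the intervals of the new regions. Of the 403 regions in tet-Myc/YAP alone, 276 (68.5%) held a peak in at least 1 transgenic list. A further count, of new regions with no peak in any of the 19 lists of other factors and marks, gave 104 of 1465 (7.10%, 5.89 to 8.53%), against 1.32% of regions also in wild-type.

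Peaks of TEAD, YAP and polymerase in new regions had median strengths near those in regions also in wild-type, and Myc peaks were weaker. Fold enrichment over the control, as the authors' peak caller gave it, had a median of 8.58 for the 1192 TEAD peaks of tet-Myc/YAP in new regions, against 8.19 for 36886 TEAD peaks in regions also in wild-type and 6.79 for 12259 outside all tet-Myc/YAP regions. For Myc the medians were 9.55, against 10.8 and 7.70, and for polymerase 6.23, against 6.23 and 4.44. For YAP they were 6.80, against 6.80 and 6.21. Every peak was counted here and a region can hold several, so the strength of the best peak per region was not compared.

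Summits lay close to the strong acetylation blocks of the new regions. The strong blocks made up 25.9% of the bases of new regions and held 657 of 808 Myc summits of tet-Myc/YAP liver (81.3%, 78.5 to 83.8%), 146 of 176 YAP summits (83.0%), 594 of 881 polymerase summits (67.4%) and 706 of 1181 TEAD summits (59.8%). In regions also in wild-type the blocks made up 40.1% of the bases and held 92.3% of Myc, 96.6% of YAP, 72.6% of polymerase and 80.1% of TEAD summits. Myc and YAP were therefore the factors most often inside the blocks in both groups. The median distance of a summit from the centre of the longest block of a new region was 264 bp for Myc, 254 bp for YAP, 369 bp for polymerase and 456 bp for TEAD. The corresponding distances in the wider regions also in wild-type were 998, 609, 2274 and 1419 bp. In regions in tet-Myc/YAP alone, which were also narrow, they were 268, 332, 360 and 398 bp, so short distances were not particular to new regions.

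**Figure D5:**
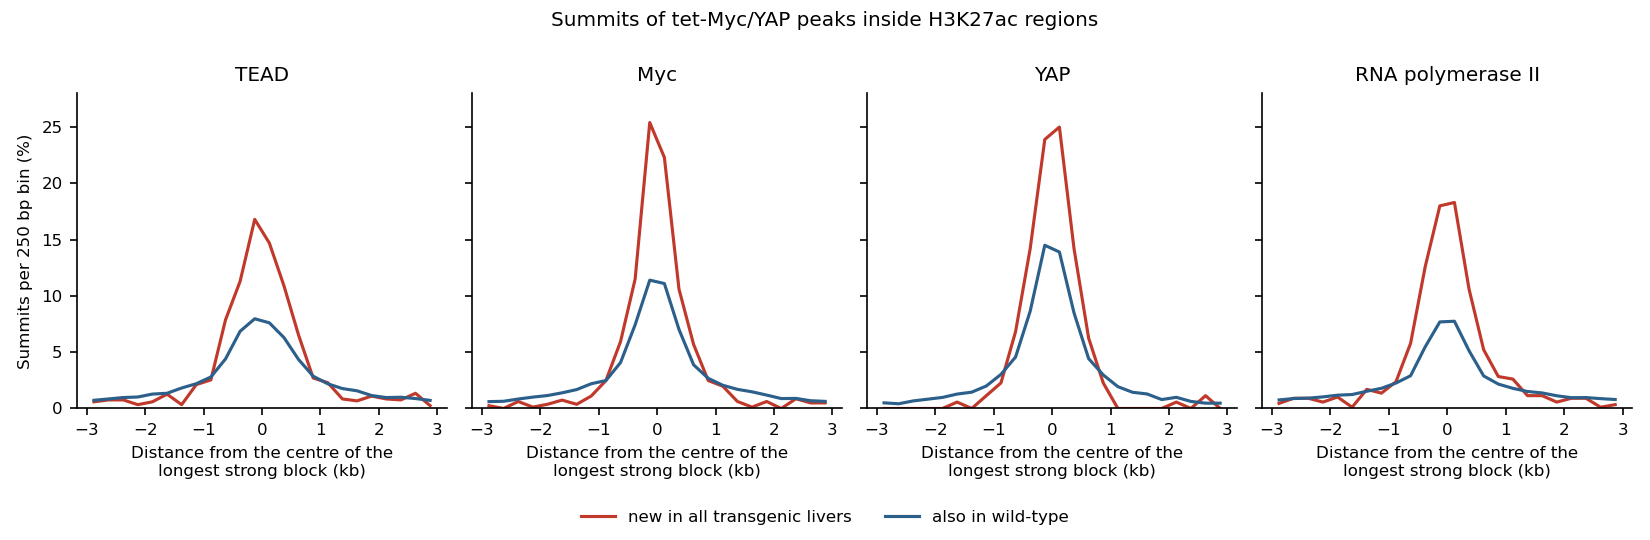
Percentage of the summits of tet-Myc/YAP peaks (y axis, per 250 bp bin) by distance from the centre of the longest strong H3K27ac block of the region (x axis, kb), in regions new in all transgenic livers and in the wider regions also in wild-type. Summits of all 4 factors gather at the block centre, with 25.4% of Myc and 16.8% of TEAD summits of new regions in the bin just left of it, against 11.4% and 7.97% in regions also in wild-type.

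Single regions show the range of factor content behind these shares. The new regions with the highest H3K27ac scores were chr12:111655129-111670712, chr10:26634980-26643188 and chr10:79056283-79063827, at percentiles 88.3, 87.2 and 87.0 of the tet-Myc/YAP list. All of them carried wild-type H3K4me1 and no wild-type H3K4me3, and none had polymerase in wild-type liver. At chr12:111655129-111670712 the fold enrichment of the best TEAD peak was 22.8 in tet-Myc/YAP, 11.4 in tet-Myc and 8.44 in tet-YAP, against 4.71 in wild-type. Polymerase was at 7.65 in tet-Myc/YAP and 5.30 in tet-Myc. The best Myc peaks of these livers, at 9.55 and 5.21, lay at different positions in the region. At chr10:79056283-79063827 TEAD was at 39.3, 14.6 and 16.3, against 5.18 in wild-type, with polymerase at 12.4 in tet-Myc/YAP and 10.1 in tet-YAP. At chr10:26634980-26643188 TEAD was strong in every liver, at 33.6, 25.9 and 21.7, against 18.2 in wild-type. Fold values of different libraries depend on their depth and control and are given side by side without a test.

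The strongest TEAD peaks of tet-Myc/YAP liver in new regions differed in how they stood in the other livers. The peak in chr11:80629204-80635471 had fold enrichments of 70.4 in tet-Myc/YAP, 102 in tet-Myc and 59.5 in tet-YAP, against 48.1 in wild-type, and the region carried neither wild-type H3K4me3 nor H3K4me1. It also held the YAP peak with the highest −log10 q among new regions, 32.4 in tet-Myc/YAP, with YAP at 21.6 on that scale in tet-YAP. The peak in chr11:16577822-16587254 had 85.2 in tet-Myc/YAP, 8.71 in tet-Myc and 30.2 in tet-YAP, and no TEAD peak was called there in wild-type. The peak in chr19:29309929-29322359 had 74.2, 13.6 and 21.6, against 12.1 in wild-type. The other leading YAP peaks were in chr8:26383938-26387742, where TEAD was at 50.6, 85.9 and 61.8, against 41.2 in wild-type, and in chr7:77940326-77968340, the widest new region at 28015 bp.

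All of the 3 widest new regions held TEAD in all 4 lists and polymerase in tet-Myc/YAP liver. In chr3:121712468-121739738, 27271 bp wide, polymerase was present in all livers, at 10.7 in tet-Myc/YAP, 19.6 in tet-Myc and 11.3 in tet-YAP, against 8.63 in wild-type. In chrX:70710123-70735693, 25571 bp wide and with H3K4me3 in all 4 livers, TEAD was at 47.8, 23.5 and 19.1, against 11.2 in wild-type, and no Myc peak was called in any list.

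The strongest Myc peaks in new regions were at sites where Myc was absent from the short wild-type list, as it was at 1439 of all 1465 new regions. In chr19:15997685-16002572 the fold enrichment of Myc was 77.0 in tet-Myc/YAP and 20.5 in tet-Myc, with none called in tet-YAP or wild-type, and polymerase was at 17.6 in tet-Myc/YAP and 5.66 in tet-Myc and was not called in tet-YAP or wild-type. In chr6:85381194-85386111 Myc was at 52.6 in tet-Myc/YAP, 55.1 in tet-Myc and 10.9 in tet-YAP, and polymerase at 9.78, 9.30 and 5.28, with neither called in wild-type. In chr11:107433717-107437110 Myc was at 65.7, 34.9 and 9.63, and polymerase was at 8.18 in tet-Myc/YAP and 5.93 in tet-Myc, against 5.51 in wild-type. The first and second of these carried H3K4me3 in all 4 livers, and the third carried wild-type H3K4me1 and no H3K4me3.

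Among the 7 regions where H3K4me3 and H3K27ac were both new in all transgenic livers, the highest scores were at chr2:14018599-14034267, chr2:118127120-118137223 and chr5:116369984-116374149. In chr2:118127120-118137223 Myc was at 27.8 in tet-Myc/YAP, 45.3 in tet-Myc and 15.5 in tet-YAP and polymerase at 13.0, 21.1 and 9.99, with no peak of either in wild-type. The polymerase peaks that gave the tet-Myc/YAP and tet-YAP values there did not overlap each other. In chr5:116369984-116374149 TEAD was at 25.8, 13.0 and 8, and polymerase at 11.1, 7.10 and 5.28, with no polymerase in wild-type. The only wild-type TEAD peak there, at 4.91, lay at another position in the region and did not overlap these TEAD peaks. In chr2:14018599-14034267 no polymerase peak was called in any liver, and Myc was called only in tet-Myc/YAP, at 8.94. The longest run of new regions, 4 within chr2:35286926-35365714 (78789 bp), had low scores throughout, at percentiles of 5.68 to 11.8, and 1 of its members held all of its TEAD, Myc and YAP peaks.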

How the data were processed

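Peaks of 23 ChIP-seq lists from mouse liver were used, 1 per antibody and genotype. A further sample, titled as input with an IgG antibody, has no genotype in the labels, entered no group and was not analysed here. Per the submitters' processing notes the authors aligned reads to mm9 with BWA 0.6.2, handled them with SAMtools and called peaks with MACS2 2.0.9. YAP chromatin was fixed with DSG and formaldehyde, and chromatin for all other antibodies with formaldehyde alone. The 14 narrow lists were deposited with pileup signal, a ratio to the control (fold enrichment), −log10 p and −log10 q, called by the authors per library at a p-value cutoff of 1.00e-05 per the file headers. The 9 broad lists were deposited with a score whose scale is not stated, used only for ranks within a list, and a count of strong blocks per region. No source used here gives their cutoffs or depth.

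Overlaps of 1 bp or more were found in Python 3.11.15 (pandas 2.3.3, numpy 2.4.6), tested on simulated data and checked against bedtools 2.31.1, which gave the same number of members. Wilson 95% intervals came from scipy 1.17.1 and figures from matplotlib 3.10.9. Fold enrichment was compared within a list. A region's value in a list is its peak with the highest −log10 q, so values of different lists can come from different positions in the region.

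Members, comparisons and the rule for single regions were chosen with earlier results of these data known. Single regions are the 3 members with the highest score, the 3 widest, the 3 with the highest −log10 q of TEAD, of Myc and of YAP in tet-Myc/YAP, the 3 highest scores with new H3K4me3, and the longest run within 50 kb, leaving out chromosome 18. Width classes with edges at 2000, 4000 and 8000 bp (in place of 500 and 1000 bp, which most regions exceeded), score quartiles, lists cut to the wild-type length and the values without chromosome X were chosen after seeing the data. No genome or annotation of the mm9 build was used here, so planned gene lists, the check of the liver label against marker genes, motifs and sequences were not run, and regions are given by mm9 position, counted from 1. Other alternatives tried were the summit inside the region, −log10 q of at least 10, 1 kb of clearance from wild-type regions, regions above the median score, and cover over at least 50% of the width.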

Additional observations from a re-analysis of the deposited data

How the results depend on the processing

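Of 113 shares of new regions recomputed under other settings, 75 moved by less than their interval and 38 by more, as did 2 of 7 counts and none of 14 medians. Counted as regions of the tet-Myc and of the tet-YAP list, there were 1410 and 1433 new regions, with 1 kb of clearance 1461, cover over at least 50% of the width 1333 and no chromosome X 1386. Cutting the transgenic lists to the wild-type length gave 638, and regions above the median score 11. With −log10 q of at least 10 (new regions, then regions also in wild-type), tet-Myc/YAP TEAD was at 54.6 and 82.2%, Myc at 39.9 and 73.5%, YAP at 5.67 and 26.2%, and polymerase at 42.7 and 71.5%; wild-type TEAD was at 28.4 and 65.1%, Myc at 0.273 and 1.04%, and polymerase at 16.9 and 57.2%. With tet-Myc/YAP lists cut to the wild-type length, TEAD was at 46.4 and 73.9%, Myc at 5.26 and 23.4%, and polymerase at 41.8 and 70.8%. Above the median score, tet-Myc/YAP TEAD was at 93.7 and 96.7%, Myc at 84.5 and 96.8%, YAP at 26.8 and 65.6%, and polymerase at 75.4 and 95.2%; wild-type TEAD was at 71.8 and 90.0%, Myc at 4.23 and 21.5%, H3K4me3 at 40.1 and 86.5%, and H3K4me1 at 66.2 and 95.5%. The share stayed lower at new regions in 131 of 132 comparisons, the exception being tet-YAP YAP above the median score (9.15 and 5.60%). Within score quartiles, chosen after seeing the data like the cut lists and the removal of chromosome X, the order turned in the 2 lower classes for H3K4me3 in all 4 genotypes and tet-Myc/YAP polymerase, in the bottom one for tet-YAP polymerase, in the second for tet-Myc/YAP Myc, in the second and the third for tet-YAP YAP (10.4 and 2.54% in the third), and in the top one for TEAD in the transgenic livers. No paired analysis was possible because each group had 1 library.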

Other observations

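The mirror group of the new regions, 521 wild-type H3K27ac regions found in none of the transgenic lists, had a median width of 4972 bp and a median score percentile of 11.2 in the wild-type list. Of these, 9 lay on chromosome X, among 319 wild-type regions there. On chromosome X itself, polymerase was at 60 of 79 new regions in tet-Myc/YAP (75.9%, interval 65.5 to 84.0%), at 57 in tet-Myc (72.2%) and at 45 in tet-YAP (57.0%), against 32 in wild-type (40.5%, 30.4 to 51.5%). For the 321 chromosome X regions also in wild-type the shares were 78.2%, 82.6% and 73.8%, against 64.5% in wild-type. YAP in tet-Myc/YAP was at 3 of the 79 (3.80%), against 9.35% of the 321.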
